A study of Mus musculus with 17 samples.

Results

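The genes described here are the chemokines and chemokine receptors, that is every gene whose mouse symbol begins with Ccl, Cxcl, Ccr or Cxcr followed by a digit. Membership went by name alone, though the family was chosen with earlier results of these data known. Of the 23238 rows (transcript clusters, the groups of probes that stand for 1 gene) in the value table, 14939 carried a single gene symbol, and 44 of those belonged to this family: 29 ligand genes and 15 receptor genes, each with 1 row. Ccl19, Ccl21, Ccl27 and Ccr8 were not analysed here.

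The RNA came from lungs of SPC/c-Raf mice, which carry a c-Raf transgene under the surfactant protein C promoter, active in alveolar epithelium, and from lungs without the transgene. Cells were cut out of haematoxylin-stained cryosections with a laser, and 17 Affymetrix mouse exon arrays were hybridised. Non-transgenic alveolar lung gave 5 arrays from mice aged 7 to 11 months, 2 labelled male and 3 labelled female. Transgenic lung that looked unaltered under the microscope gave 4 arrays and dysplasia, the lesion that precedes the tumour in this line, gave 4, all from males aged 5 to 6 months. Adenocarcinoma gave 4 arrays from transgenic mice aged 11.5 to 14 months, 3 labelled male and 1 labelled female. Unaltered and dysplastic tissue with the same replicate number carried the same animal label, so these 2 groups are 4 pairs. The labels of 3 arrays (dysplasia replicate 2, unaltered replicate 2 and adenocarcinoma replicate 4) each name 2 animals.

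Chemokines are small secreted proteins that direct the movement of leukocytes. They bind receptors of the G protein-coupled kind on the responding cell, and gradients of them call neutrophils, monocytes, dendritic cells and lymphocytes out of blood and into tissue. Some, such as Cxcl12, Cxcl13 and the ligands of Ccr7, are made without inflammation and place lymphocytes and progenitors within tissues. Others are switched on by interferon or by NF-kB, and in lung the epithelium, macrophages, endothelium and stroma are all known sources.

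Values are log2 RMA values, on which a difference of 1 is a factor of 2, and are given as mean ± SD over arrays. Differences are given ± SE from 1 limma fit over all rows, and a row is called where its Benjamini-Hochberg adjusted p over all rows lies under 0.05. The level of a gene on an array also depends on its probes, so levels are compared between groups and not between genes. In pieces of tissue, fewer cells of a type and less RNA per cell cannot be told apart.

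Some facts of the arrays touch several results below. Among the non-transgenic arrays, Spearman correlations over all rows were at least 0.989 within replicates 1 to 3 and within 4 and 5, but 0.975 to 0.980 across these 2 sets, so replicates 4 and 5 form a set of their own. These were also the only 2 of the 17 arrays with low Y-linked genes (means of 3.78 and 3.67, the others 7.92 to 8.60), and the mean log2 level of smooth muscle markers was 9.24 and 9.26 on them against 7.99 to 8.17 on replicates 1 to 3. Markers of club and ciliated cells, which line the airways, were high on them too, with values given beside Cxcl17. Macrophage markers were also higher on them than on replicates 1 to 3, with values given beside Ccr1. Sex was not a term of the fit, because Y-linked genes went against the label on 4 arrays, adenocarcinoma replicate 2 and, among the non-transgenic ones, replicates 2, 3 and 5. Markers of alveolar type II cells, the cells in which the surfactant promoter is active, were abundant in every group: the log2 of their summed level lay between 15.77 and 15.90 in non-transgenic lung, 15.95 and 16.01 in unaltered tissue, 16.22 and 16.29 in dysplasia, and 16.39 and 16.41 in adenocarcinoma. Age and group cannot be told apart for adenocarcinoma, whose mice were all older than the others. The same holds for unaltered tissue and dysplasia against non-transgenic lung. Their mice, aged 5 to 6 months, were all younger than the non-transgenic mice, aged 7 to 11 months. With age as a covariate, 11 of the 19 calls between adenocarcinoma and non-transgenic lung remained (Ccl5, Ccl11, Ccr7, Cxcl9, Cxcl10, Cxcl12, Cxcl15, Cxcl17, Cxcr2, Cxcr4 and Cxcr5), and 2 of the 15 between adenocarcinoma and unaltered tissue (Cxcl9 and Cxcr2). The same covariate left none of the 9 between adenocarcinoma and dysplasia, 1 of the 9 between unaltered and non-transgenic tissue (Ccl5) and 6 of the 13 between dysplasia and non-transgenic lung (Ccl5, Ccl12, Cxcl12, Cxcl15, Cxcl17 and Cxcr5).

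Dysplasia against unaltered tissue of the same animals asks what marks the early lesion. Of the 44 genes, 9 rose in dysplasia and 3 fell, where 15.1% of all rows were called higher and 5.32% lower. The rises were Ccl12, Ccl17, Ccl22, Cxcl9, Cxcl10, Cxcl15, Cxcl16, Cxcl17 and the receptor gene Cxcr6, and the falls were Cxcl12, Cxcl14 and Cxcr2. Each of these 12 moved the same way in all 4 pairs of arrays. They were called on these same arrays, so this agreement is not separate support. Among uncalled genes, Ccl3, Ccl20, Ccr2 and Cxcr3 also rose in all 4 pairs. The share of all rows that rose in all 4 pairs was not counted, so no weight is put on this. The median difference over the 44 genes was 0.08, against 0.06 over all rows. Without the animal as a block, 5 of the 12 were called (Ccl22, Cxcl10, Cxcl16, Cxcl17 and Cxcr6), and with the pair as a fixed block 7 of the 12, with Cxcl9, Cxcl14, Cxcl15, Cxcr2 and Ccl17 lost.

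Unaltered transgenic tissue against non-transgenic lung asks what the transgene goes with before a lesion is seen, but the transgenic mice here were also younger. Here 2 of the 44 genes were called higher (Ccr1 and Cxcr2) and 7 lower (Ccl5, Ccr7, Ccr9, Cxcr3, Cxcr4, Cxcr5 and Cxcr6), where 2.47% of all rows were called higher and 11.8% lower. Of these 9 genes 8 encode receptors, and of the 29 ligand genes Ccl5 alone was called. The median difference was -0.06 over the 44 genes and -0.08 over all rows. After quantile normalization or cyclic loess between arrays the split was 3 higher and 5 lower. The split over all rows turned with these scalings, from 574 higher and 2743 lower to 971 and 822 after quantile normalization and 984 and 971 after cyclic loess.

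Dysplasia and adenocarcinoma were each set against non-transgenic lung, with which they share the same 5 control arrays. In dysplasia 8 genes were higher and 5 lower, where 7.62% of all rows were called higher and 9.86% lower, and the median differences were 0.04 for the family and -0.01 for all rows. In adenocarcinoma 8 were higher and 11 lower, where 13.6% of all rows were called higher and 16.4% lower, with medians of 0.04 and 0.01. Among the receptor genes 1 rose in adenocarcinoma and 6 fell, and among the ligand genes 7 rose and 5 fell.

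Adenocarcinoma was also compared with both other transgenic tissues. Against unaltered tissue 8 genes were higher and 7 lower, where 16.8% of all rows were called higher and 10.1% lower. That split was 7 higher and 9 lower after quantile normalization and 6 higher and 9 lower after cyclic loess, while all rows went from 3903 higher and 2338 lower to 3304 and 2796 and to 3052 and 3140. Against dysplasia 3 genes were higher (Ccl3, Cxcl9 and Cxcl10) and 6 lower (Ccl11, Ccr2, Ccr7, Cxcl13, Cxcr2 and Cxcr5), where 4.48% of all rows were called higher and 7.48% lower. Over all 4 groups the moderated F-test called 22 of the 44 genes, where 37.1% of all rows were called. In all, 26 genes were called in at least 1 of the 6 comparisons and 18 in none. Among the 26, Ccr6, Ccr9, Cxcl1 and Cxcr1 were each called once and did not pass the F-test (adjusted p = 0.102, 0.0626, 0.0834 and 0.0793).

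**Figure D1:**
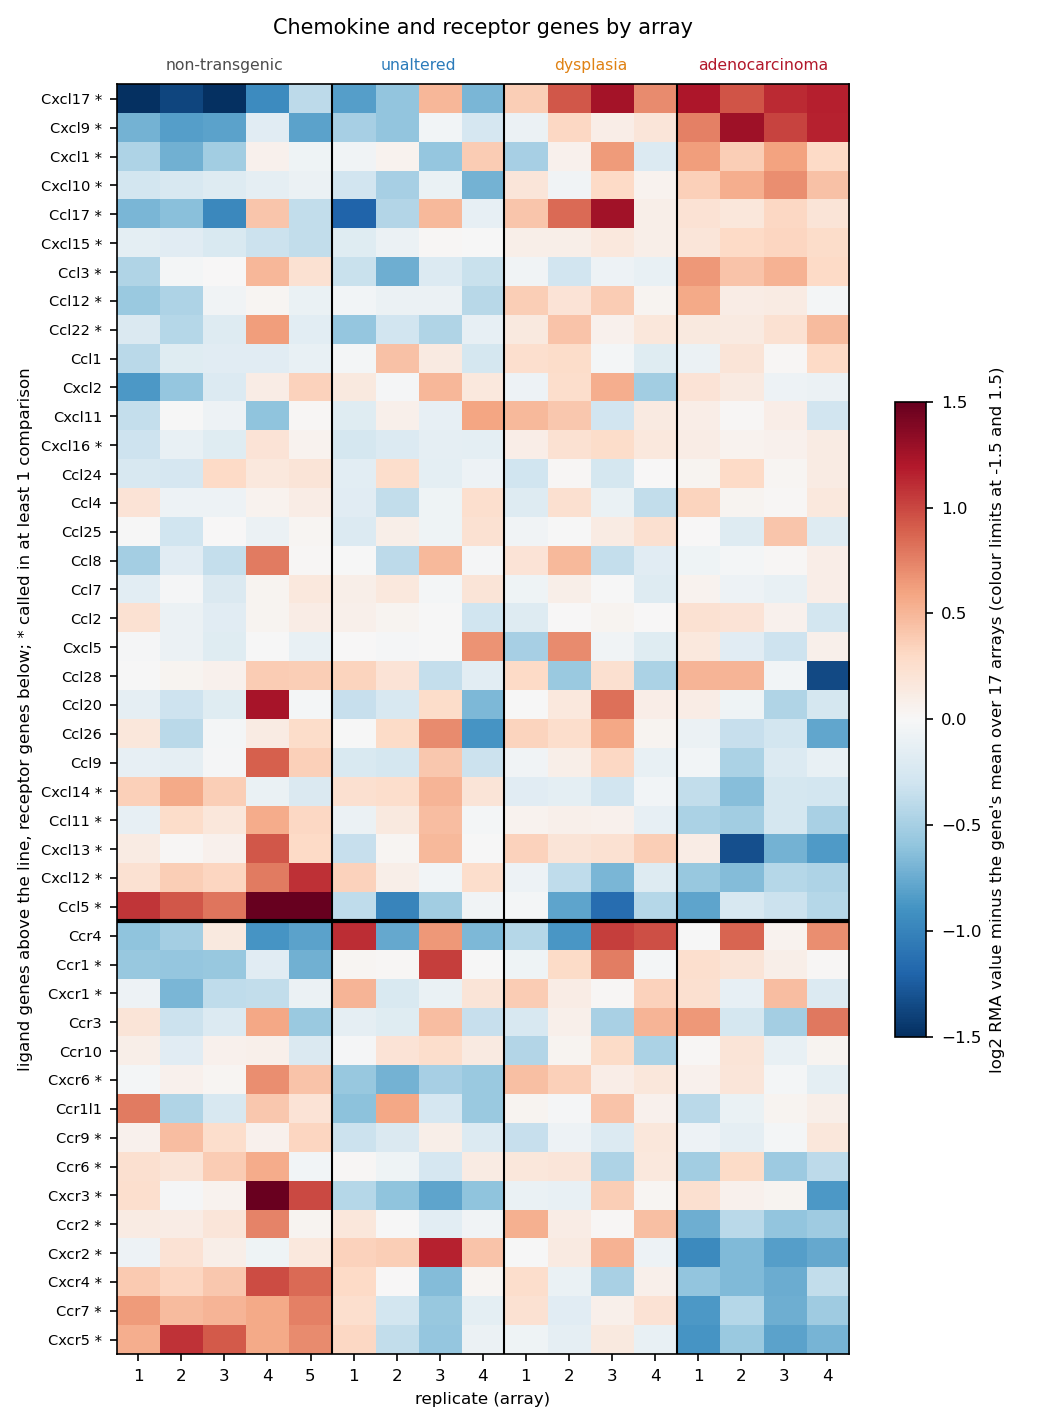
Colours show the log2 RMA value of each of the 44 genes on each of the 17 arrays minus that gene's mean over the arrays, with ligand genes above the thick line, receptor genes below it, and an asterisk on the 26 genes called in at least 1 comparison. Cxcl17 and Cxcl9 run from low in non-transgenic lung to high in adenocarcinoma, while Ccl5 is high on the 5 non-transgenic arrays and Cxcr5, Ccr7, Cxcr4 and Cxcr2 are low on the 4 adenocarcinoma arrays.

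**Figure D2:**
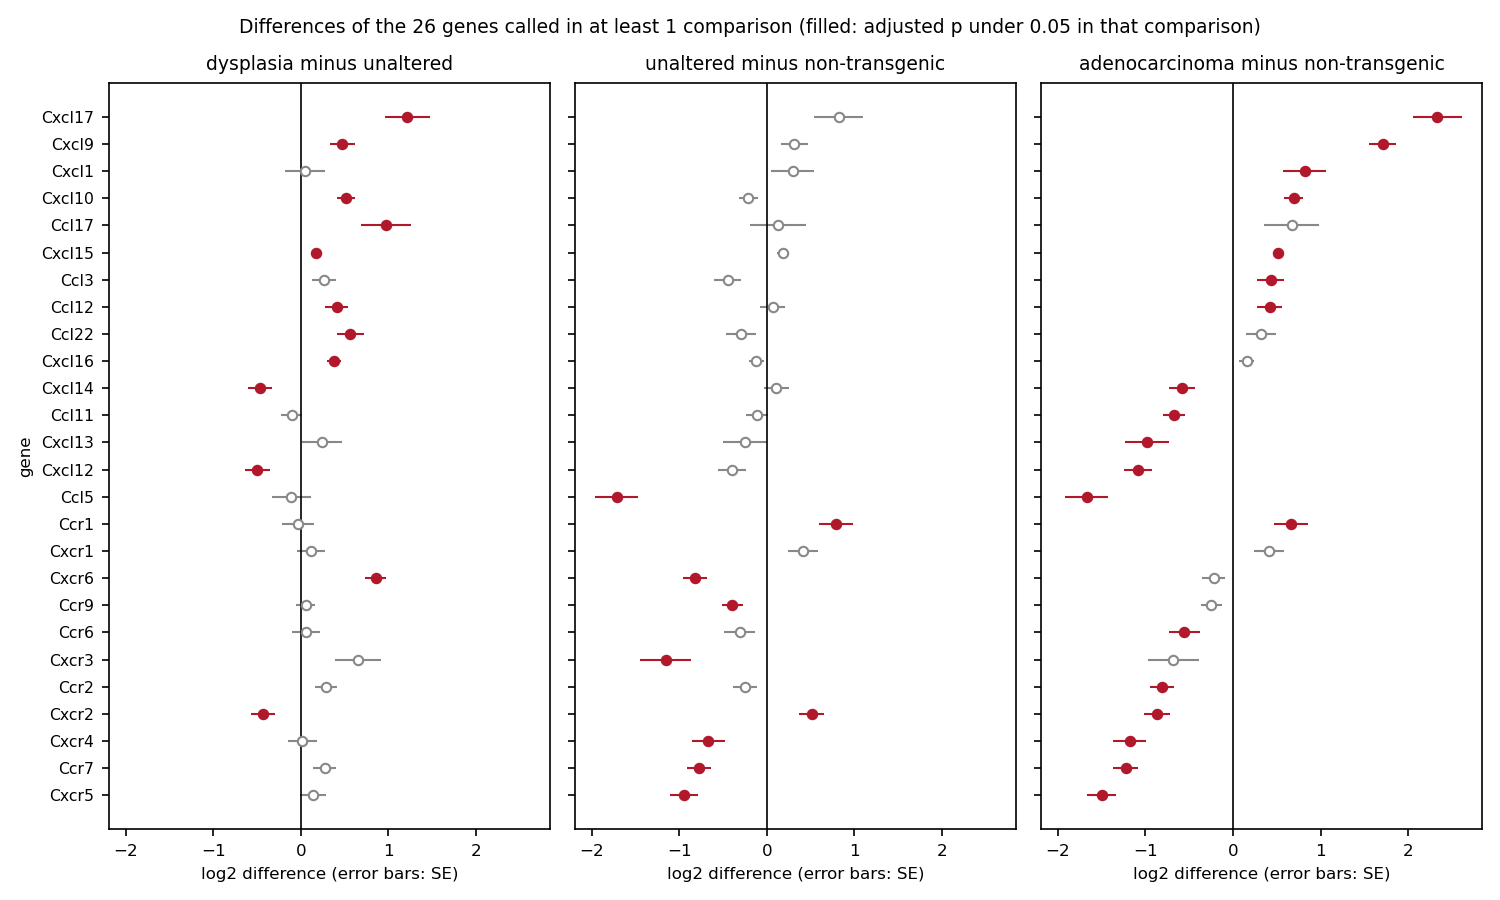
Points show the log2 difference with its SE for the 26 genes called at least once, in dysplasia minus unaltered tissue, unaltered minus non-transgenic tissue and adenocarcinoma minus non-transgenic lung, filled where the adjusted p is under 0.05. Cxcl17 has the highest adenocarcinoma point, at 2.33, and Ccl5 the lowest, at -1.67.

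Among the ligands of epithelium, Cxcl17 showed the greatest rise of the family in the 6 comparisons. Cxcl17 is a mucosal chemokine made by airway epithelium that attracts myeloid cells. Its values were 6.66, 7.08, 6.86, 7.51 and 8.06 on non-transgenic replicates 1 to 5, and 7.63, 7.86, 8.96 and 7.77 on unaltered replicates 1 to 4. They were 8.83, 9.39, 9.70 and 9.16 in dysplasia and 9.66, 9.40, 9.58 and 9.62 in adenocarcinoma. Every lesion array lay above every non-transgenic array, and unaltered replicate 3, at 8.96, reached the range of dysplasia. Dysplasia exceeded non-transgenic lung by 2.04 ± 0.28 (4.10-fold, adjusted p = 9.39e-05) and adenocarcinoma exceeded it by 2.33 ± 0.28 (5.03-fold, adjusted p = 7.3e-06). Within the 4 pairs, dysplasia was higher than unaltered tissue by 1.19, 1.53, 0.74 and 1.40, a difference of 1.22 ± 0.26 (adjusted p = 0.00371). Adenocarcinoma also exceeded unaltered tissue, by 1.51 ± 0.30 (adjusted p = 0.00102). The step from non-transgenic to unaltered tissue was 0.82 ± 0.28 and missed the threshold (adjusted p = 0.0648).

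Airway cell markers varied with Cxcl17 within 2 groups. The mean log2 level of 3 club cell markers was 9.88, 10.17 and 10.16 on non-transgenic replicates 1 to 3 and 11.94 and 12.17 on replicates 4 and 5, and 9.46, 11.37, 12.15 and 11.12 on the unaltered arrays. It lay between 11.91 and 12.06 in dysplasia and between 7.80 and 9.98 in adenocarcinoma. The mean of 3 ciliated cell markers was 5.45 to 5.70 on non-transgenic replicates 1 to 3, 7.36 and 7.83 on replicates 4 and 5, and 5.56, 6.41, 7.32 and 6.36 on the unaltered arrays, and it ran from 7.10 to 7.21 in dysplasia and from 5.56 to 5.88 in adenocarcinoma. Non-transgenic replicates 4 and 5 and unaltered replicate 3, the highest of their groups for Cxcl17, were thus the highest for both lists, whereas in adenocarcinoma Cxcl17 was high and both lists were low. No marker of either list was called between dysplasia and unaltered or non-transgenic tissue, and their part in the Cxcl17 differences of dysplasia was not tested.

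Cxcl15, known as lungkine, is a chemokine of mouse lung epithelium that draws neutrophils into the airspace. Its mean rose from 13.14 ± 0.09 in non-transgenic lung and 13.32 ± 0.09 in unaltered tissue to 13.50 ± 0.03 in dysplasia and 13.66 ± 0.06 in adenocarcinoma. The differences from non-transgenic lung were small beside those of Cxcl17 but larger than the spread between arrays, at 0.35 ± 0.06 in dysplasia (adjusted p = 0.000744) and 0.52 ± 0.06 in adenocarcinoma (adjusted p = 7.54e-06). The difference of 0.34 ± 0.07 between adenocarcinoma and unaltered tissue passed too (adjusted p = 0.00105), but not after cyclic loess (adjusted p = 0.111). Dysplasia minus unaltered tissue was 0.17 ± 0.06 (adjusted p = 0.0452), and that call was lost without any 1 of dysplasia replicates 1 to 4 or unaltered replicates 1 and 2 (adjusted p from 0.058 to 0.156). It was 0.11 after quantile normalization (adjusted p = 0.226) and 0.07 after cyclic loess (adjusted p = 0.483). The difference from non-transgenic lung was 0.22 in dysplasia after quantile normalization, 0.24 there after cyclic loess and 0.34 in adenocarcinoma after cyclic loess, all still called.

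Cxcl16 is made both as a membrane-bound and as a soluble chemokine by macrophages and epithelium and binds Cxcr6, a receptor of activated T and NKT cells. Cxcl16 stood at 9.67 ± 0.20 in non-transgenic lung, 9.55 ± 0.06 in unaltered tissue, 9.93 ± 0.07 in dysplasia and 9.83 ± 0.03 in adenocarcinoma. It was 0.38 ± 0.08 higher in dysplasia than in unaltered tissue (adjusted p = 0.00307), with no overlap of the arrays. Its calls in dysplasia against non-transgenic lung (0.26 ± 0.09, adjusted p = 0.049) and in adenocarcinoma against unaltered tissue (0.28 ± 0.09, adjusted p = 0.0317) were less stable. The former was lost without any 1 of the 4 dysplasia arrays or of non-transgenic replicates 1 to 3 (adjusted p from 0.058 to 0.124), and the latter without unaltered replicate 1 or 2 or adenocarcinoma replicate 1, 3 or 4 (adjusted p from 0.0578 to 0.0749). The latter difference was 0.18 after quantile normalization (adjusted p = 0.115) and 0.15 after cyclic loess (adjusted p = 0.197). Type II cell markers moved with these ligands in some comparisons. Of the 8 measured, 7 were higher in dysplasia than in unaltered tissue (15.1% of all rows), as were Cxcl17, Cxcl15 and Cxcl16. In adenocarcinoma 7 were higher than in unaltered tissue (16.8% of all rows), as were these ligands. Against non-transgenic lung 7 were higher in adenocarcinoma (13.6% of all rows), as were Cxcl17 and Cxcl15 but not Cxcl16. In unaltered against non-transgenic tissue 5 were higher (2.47% of all rows), but none of these ligands was called. The part of these markers in the result was not tested.

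The receptor gene Cxcr6 changed together with its ligand between the paired tissues. Its values were 6.20, 6.06, 6.27 and 6.21 on the unaltered arrays and 7.22, 7.12, 6.87 and 6.94 on the dysplasia arrays of the same animals. On the non-transgenic arrays it lay between 6.74 and 7.46 and in adenocarcinoma between 6.62 and 6.95, so unaltered tissue was the group apart. Cxcr6 was lower in unaltered tissue than in non-transgenic lung (log2 difference -0.82 ± 0.14, adjusted p = 0.00208), higher in dysplasia than in unaltered tissue by 0.85 ± 0.12 (adjusted p = 0.000243) and higher in adenocarcinoma than in unaltered tissue by 0.60 ± 0.14 (adjusted p = 0.00477). Dysplasia and non-transgenic lung differed by 0.03 ± 0.14, with a 95% interval from -0.26 to 0.32.

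Of the 3 ligands of Cxcr3, Cxcl9 and Cxcl10 rose and Cxcl11 was called nowhere. Cxcl9, Cxcl10 and Cxcl11 are induced by interferon and draw activated T and NK cells that carry Cxcr3. Cxcl9 read 5.07, 4.95, 4.98, 5.61 and 4.97 on non-transgenic replicates 1 to 5 and 5.27, 5.18, 5.74 and 5.53 in unaltered tissue. It read 5.69, 6.09, 5.87 and 5.96 in dysplasia and 6.53, 7.05, 6.79 and 6.93 in adenocarcinoma. All 4 tumour arrays lay above every other array. Adenocarcinoma exceeded non-transgenic lung by 1.71 ± 0.16 (3.27-fold, adjusted p = 3.25e-07), unaltered tissue by 1.40 ± 0.16 (adjusted p = 8e-06) and dysplasia by 0.92 ± 0.16 (adjusted p = 0.00133). Dysplasia exceeded non-transgenic lung by 0.79 ± 0.16 (adjusted p = 0.0019). Against the paired unaltered tissue it was higher by 0.41, 0.91, 0.14 and 0.43, and this difference of 0.47 ± 0.14 (adjusted p = 0.029) was lost without dysplasia replicate 2 or 4 or unaltered replicate 1 or 2 (adjusted p from 0.0565 to 0.119) or after quantile normalization (0.0783).

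Cxcl10 rose alongside. Its values lay between 6.75 and 6.94 in non-transgenic lung, between 6.32 and 6.93 in unaltered tissue, between 6.98 and 7.32 in dysplasia and between 7.38 and 7.72 in adenocarcinoma. Dysplasia was 0.52 ± 0.10 above unaltered tissue (adjusted p = 0.00188), and adenocarcinoma was 0.69 ± 0.11 above non-transgenic lung (adjusted p = 0.000106) and 0.90 ± 0.11 above unaltered tissue (adjusted p = 1.58e-05). The further difference of 0.39 ± 0.11 between adenocarcinoma and dysplasia (adjusted p = 0.0373) was lost without any 1 of dysplasia replicates 1, 2 and 4 or adenocarcinoma replicates 2, 3 and 4 (adjusted p from 0.0579 to 0.123). Cxcl11 was low on this array, with group means between 3.84 and 4.23.

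Cxcl9 and Cxcl10 lie close together on mouse chromosome 5, and because they rose together their promoters are shown, as the 250 bases before the start of the gene in RefSeq (GRCm38.p6), read 5′ to 3′ on the gene's strand with motif matches in capitals. The Cxcl9 window is chr5:92328080-92328329 and the Cxcl10 window chr5:92348890-92349139, both on the minus strand.
Cxcl9: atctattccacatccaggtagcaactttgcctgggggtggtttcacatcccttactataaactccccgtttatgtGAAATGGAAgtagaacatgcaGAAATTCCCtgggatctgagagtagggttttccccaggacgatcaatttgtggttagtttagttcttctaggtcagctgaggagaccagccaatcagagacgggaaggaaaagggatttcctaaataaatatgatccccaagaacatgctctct
Cxcl10: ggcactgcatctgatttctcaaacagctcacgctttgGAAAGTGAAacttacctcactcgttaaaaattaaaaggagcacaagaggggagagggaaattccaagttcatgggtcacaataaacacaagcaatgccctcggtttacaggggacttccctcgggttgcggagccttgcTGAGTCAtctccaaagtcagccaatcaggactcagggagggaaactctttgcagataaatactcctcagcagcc
Both windows held the interferon element pattern GAAANNGAA, at positions -175 to -167 of Cxcl9 and -213 to -205 of Cxcl10 counted back from the gene's start. Cxcl9 also held the kB pattern GGGANTTTC, on the opposite strand at -154 to -146, and Cxcl10 the AP-1 pattern TGANTCA at -74 to -68. Patterns were searched on both strands, and no matches overlapped in these windows. Windows were given for 30 of the 44 genes. The interferon pattern was in 7 of the 30 and in 7.129% of all 32851 promoter windows, the kB pattern in 5 and in 0.941%, the AP-1 pattern in 4 and in 6.749%, and the GAS pattern TTCNNNGAA, which the Cxcl9 and Cxcl10 windows lacked, in 4 and in 7.02%. These are matches of letters, and no binding was measured. Other forms of these sites were not searched, so a window without a match, such as that of Cxcl10 for kB, may still hold one.

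Cxcr3, the receptor of these ligands, was called once, lower in unaltered than in non-transgenic tissue. It read 7.06, 6.79, 6.87, 8.29 and 7.80 in non-transgenic lung, 6.39, 6.20, 6.02 and 6.21 in unaltered tissue, 6.71, 6.70, 7.18 and 6.83 in dysplasia, and 7.05, 6.87, 6.85 and 5.94 in adenocarcinoma. The 4 unaltered arrays lay below all non-transgenic and all dysplasia arrays. Unaltered tissue was lower than non-transgenic lung (log2 difference -1.16 ± 0.29, adjusted p = 0.0158). Without non-transgenic replicates 4 and 5, on which Cxcr3 was highest, this was -0.70 (adjusted p = 0.0502). Dysplasia was higher than unaltered tissue in all 4 pairs, but the difference of 0.65 ± 0.26 was not called (adjusted p = 0.0971), and adenocarcinoma minus non-transgenic lung was -0.68 ± 0.29 (adjusted p = 0.0914).

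**Figure D3:**
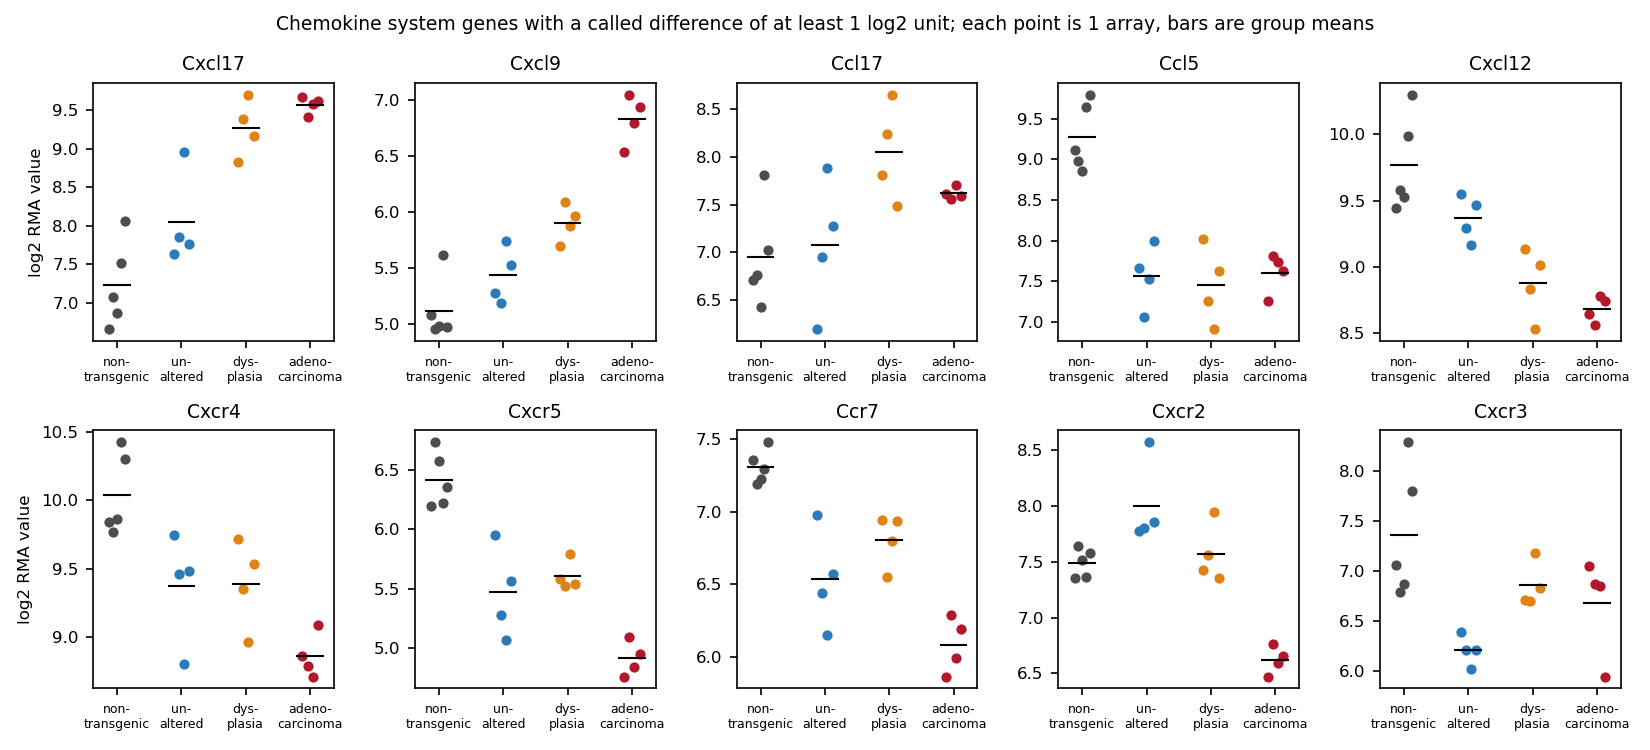
Each point is the log2 RMA value of 1 gene on 1 array, and bars are group means, for the 10 genes with a called difference of at least 1 log2 unit. The 4 adenocarcinoma arrays lie above all others for Cxcl9 and below all others for Cxcr2.

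The T-cell chemokine Ccl5, also called RANTES, is made by T and NK cells and by activated epithelium and binds receptors that include Ccr1 and Ccr3. It showed the greatest fall of the family in the 6 comparisons. The non-transgenic arrays read 9.12, 8.98, 8.85, 9.64 and 9.79. The unaltered arrays read 7.67, 7.06, 7.52 and 7.99, the dysplasia arrays 8.02, 7.26, 6.91 and 7.62 and the adenocarcinoma arrays 7.26, 7.81, 7.73 and 7.63. No transgenic array reached the lowest non-transgenic one, and the 3 transgenic groups overlapped. Ccl5 was lower than in non-transgenic lung in unaltered tissue (3.28-fold, log2 difference -1.72 ± 0.24, adjusted p = 0.000853), in dysplasia (log2 difference -1.82 ± 0.24, adjusted p = 7.05e-05) and in adenocarcinoma (log2 difference -1.67 ± 0.24, adjusted p = 5.41e-05). Non-transgenic replicates 4 and 5 were the highest, and without them the 3 differences were -1.42, -1.53 and -1.38, all called. Dysplasia minus unaltered tissue was -0.11 ± 0.22, with a 95% interval from -0.59 to 0.37.

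Of 17 T and NK cell markers measured, 9 were lower and 1 higher in unaltered than in non-transgenic tissue, where Ccl5 and Cxcr3 were also lower. Against non-transgenic lung, 8 were lower in dysplasia and 13 in adenocarcinoma. Against unaltered tissue, Ccl5 was called in neither lesion, and Cxcr3 was higher in all 4 dysplasia pairs without a call. None of the 17 markers was higher there, and 2 were lower in dysplasia and 5 in adenocarcinoma. The log2 of their summed level was 11.22 to 11.45 in non-transgenic lung, 10.99 to 11.18 in unaltered tissue, 10.94 to 11.08 in dysplasia and 10.58 to 10.81 in adenocarcinoma. Cd8a, a subunit of the CD8 co-receptor, had means of 7.66, 6.94, 6.89 and 7.03 in that order. No gene reads 0 on this scale. Their part in the result was not tested.

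Ccl17 and Ccl22 are products of dendritic cells and macrophages that attract Ccr4-bearing T cells. Ccl17 read 6.71, 6.77, 6.42, 7.81 and 7.02 in non-transgenic lung and 6.19, 6.95, 7.88 and 7.27 in unaltered tissue. It read 7.82, 8.25, 8.65 and 7.48 in dysplasia and 7.61, 7.56, 7.71 and 7.59 in adenocarcinoma. The dysplasia arrays were high but overlapped the highest array of both other groups. The difference was 0.98 ± 0.29 over unaltered tissue (adjusted p = 0.0256) and 1.10 ± 0.31 over non-transgenic lung (adjusted p = 0.0224). The former was lost without dysplasia replicate 1, 2 or 3 or unaltered replicate 1 or 2 (adjusted p from 0.0571 to 0.105), and the latter without dysplasia replicate 2 or 3 or non-transgenic replicate 1, 2 or 3 (adjusted p from 0.0501 to 0.0781).

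Ccl22 had means of 6.12 ± 0.41 in non-transgenic lung, 5.83 ± 0.20 in unaltered tissue, 6.39 ± 0.16 in dysplasia and 6.43 ± 0.16 in adenocarcinoma. It rose over unaltered tissue by 0.57 ± 0.16 in dysplasia (adjusted p = 0.0185) and by 0.61 ± 0.18 in adenocarcinoma (adjusted p = 0.019). These calls were lost without unaltered replicate 1 (adjusted p = 0.0676 and 0.0569), without dysplasia replicate 2 (0.0706, for the former) and without adenocarcinoma replicate 4 (0.0628, for the latter). Ccr4, the receptor of both ligands, had low values and wide spread (2.64 ± 0.41, 3.25 ± 0.94, 3.34 ± 0.97 and 3.57 ± 0.44 in non-transgenic, unaltered, dysplastic and tumour tissue) and was not called. Of 7 dendritic cell markers measured, 4 were higher in dysplasia than in unaltered tissue, and the log2 of their summed level was 10.40 to 10.49 against 10.02 to 10.20. In adenocarcinoma, where Ccl22 was also higher than in unaltered tissue, none of the 7 was higher and 3 were lower, and their summed level was 9.91 to 10.06. Their part in the result was not tested.

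Of the inflammatory CC ligands, Ccl3, a chemokine of macrophages that attracts monocytes and T cells, was highest in the tumours. Its means were 6.65 ± 0.35, 6.20 ± 0.23, 6.47 ± 0.11 and 7.08 ± 0.15 in non-transgenic, unaltered, dysplastic and tumour tissue. Adenocarcinoma exceeded unaltered tissue by 0.88 ± 0.16 (adjusted p = 0.00055), dysplasia by 0.61 ± 0.16 (adjusted p = 0.0205) and non-transgenic lung by 0.43 ± 0.15 (adjusted p = 0.0446). The dysplasia comparison was lost without dysplasia replicate 2 or adenocarcinoma replicate 1 or 3 (adjusted p from 0.0545 to 0.06), and the non-transgenic one without any 1 of the first 3 replicates of either group (adjusted p from 0.0738 to 0.118). Ccl4, a related macrophage chemokine, was not called and had group means between 5.01 and 5.25.

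The monocyte and eosinophil ligands are encoded side by side on mouse chromosome 11, in the order Ccl2, Ccl7, Ccl11, Ccl12, Ccl8 and Ccl1 of the RefSeq annotation. Of these 6, Ccl11 and Ccl12 were called. Ccl11, the eosinophil attractant eotaxin, had means of 6.76 ± 0.25 in non-transgenic lung, 6.65 ± 0.25 in unaltered tissue, 6.54 ± 0.09 in dysplasia and 6.09 ± 0.12 in adenocarcinoma. In adenocarcinoma it was lower than in non-transgenic lung (log2 difference -0.67 ± 0.13, adjusted p = 0.000648) and than in unaltered tissue (log2 difference -0.56 ± 0.13, adjusted p = 0.00479). It was also lower than in dysplasia (log2 difference -0.46 ± 0.13, adjusted p = 0.0385), a call lost without any 1 of the 4 dysplasia arrays or adenocarcinoma replicates 1, 2 and 4 (adjusted p from 0.0531 to 0.103) or after quantile normalization (adjusted p = 0.0633).

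Ccl12, a mouse ligand of Ccr2, was higher in the lesions. It had means of 4.66 ± 0.26, 4.73 ± 0.17, 5.14 ± 0.16 and 5.08 ± 0.26 in the same order of groups. It was called in dysplasia over unaltered tissue (0.41 ± 0.13, adjusted p = 0.0366), in dysplasia over non-transgenic lung (0.48 ± 0.14, adjusted p = 0.0287) and in adenocarcinoma over non-transgenic lung (0.42 ± 0.14, adjusted p = 0.0364). The first call was lost without dysplasia replicate 1, 2 or 3 or any 1 unaltered array (adjusted p from 0.0585 to 0.105), the second without dysplasia replicate 1, 2 or 3 or non-transgenic replicate 1 or 2 (0.0512 to 0.0832) and the third without non-transgenic replicate 1 or 2 or adenocarcinoma replicate 1, 2 or 3 (0.0532 to 0.13). The first was also lost after quantile normalization (adjusted p = 0.0917) and the third after cyclic loess (adjusted p = 0.0528). Its means in non-transgenic and unaltered tissue lay under the lower quartile of all rows (5.06 and 5.00), so its differences may be poorly resolved there. The same holds for Ccr6 in the 3 transgenic groups and Cxcr5 in adenocarcinoma. Ccl2, the main monocyte attractant, had group means between 5.50 and 5.60 and Ccl7 between 5.63 and 5.78. For Ccl2 the difference between adenocarcinoma and non-transgenic lung was 0.03 ± 0.12, with a 95% interval from -0.22 to 0.28.

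Ccr2, the receptor of Ccl2, Ccl7 and Ccl12 on monocytes, was lower in the tumours. Its means were 8.17 ± 0.29 in non-transgenic lung, 7.91 ± 0.14 in unaltered tissue, 8.20 ± 0.25 in dysplasia and 7.36 ± 0.13 in adenocarcinoma, whose arrays lay below all others. The log2 difference of adenocarcinoma was -0.81 ± 0.14 from non-transgenic lung (adjusted p = 0.000287), -0.56 ± 0.15 from unaltered tissue (adjusted p = 0.00963) and -0.85 ± 0.15 from dysplasia (adjusted p = 0.00112). Ccr1, the receptor of Ccl3 and Ccl5 on monocytes and neutrophils, was higher in every transgenic group. Its mean of 5.65 ± 0.20 in non-transgenic lung stood against 6.44 ± 0.51, 6.41 ± 0.38 and 6.31 ± 0.10, and the differences were 0.79 ± 0.20 (adjusted p = 0.0154), 0.76 ± 0.20 (adjusted p = 0.012) and 0.66 ± 0.20 (adjusted p = 0.0171). Of 14 macrophage markers measured, 12 were higher and 1 lower in adenocarcinoma than in non-transgenic lung (13.6% and 16.4% of all rows). In unaltered tissue 5 were higher and 1 lower (2.47% and 11.8%), and in dysplasia 5 were higher and 3 lower (7.62% and 9.86%). The log2 of their summed level was 13.04 to 13.41 in adenocarcinoma against 11.91 to 12.86 in non-transgenic lung. Their mean log2 level was 7.55, 7.64 and 7.56 on non-transgenic replicates 1 to 3 and 8.19 and 8.07 on replicates 4 and 5. It was 8.08 to 8.32 in unaltered tissue and 8.16 to 8.31 in dysplasia. The part of these markers in these results was not tested.

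Of the neutrophil ligand genes Cxcl1, Cxcl2 and Cxcl5, Cxcl1 alone was called. Cxcl1 and Cxcl2 attract neutrophils through Cxcr2, which neutrophils carry, and Cxcl5 is an epithelial ligand of the same receptor. Cxcl1 had means of 5.68 ± 0.33, 5.97 ± 0.40, 6.02 ± 0.48 and 6.50 ± 0.17 in non-transgenic, unaltered, dysplastic and tumour tissue. Adenocarcinoma exceeded non-transgenic lung by 0.82 ± 0.25 (1.76-fold, adjusted p = 0.0191) with no overlap, and the call was lost without non-transgenic replicate 2 or adenocarcinoma replicate 1 or 3 (adjusted p from 0.0505 to 0.0539). Cxcl2 had means of 5.06 ± 0.49, 5.49 ± 0.22, 5.35 ± 0.46 and 5.34 ± 0.15 and was not called, with a tumour difference of 0.28 ± 0.23 and a 95% interval from -0.22 to 0.78. Cxcl5 was low, at 4.22 ± 0.07, 4.46 ± 0.34, 4.29 ± 0.51 and 4.24 ± 0.22, and was not called either.

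The genes of Cxcl1 and Cxcl2 are neighbours on mouse chromosome 5, at chr5:90890995-90891244 and chr5:90903649-90903898 for the 250 bases before their starts (RefSeq, GRCm38.p6, plus strand). They are shown because both held the same letters of the kB pattern, in capitals, while 1 of the 2 genes was called.
Cxcl1: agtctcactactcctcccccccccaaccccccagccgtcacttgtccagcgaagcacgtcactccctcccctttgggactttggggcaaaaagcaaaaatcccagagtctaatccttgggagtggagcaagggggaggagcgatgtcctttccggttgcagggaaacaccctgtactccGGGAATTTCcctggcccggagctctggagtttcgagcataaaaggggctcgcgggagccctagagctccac
Cxcl2: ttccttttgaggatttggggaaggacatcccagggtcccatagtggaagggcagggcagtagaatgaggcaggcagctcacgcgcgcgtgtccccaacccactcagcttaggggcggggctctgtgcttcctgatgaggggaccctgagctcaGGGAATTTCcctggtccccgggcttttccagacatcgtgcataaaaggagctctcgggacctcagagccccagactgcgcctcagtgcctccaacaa
The match lay at positions -71 to -63 of Cxcl1 and -97 to -89 of Cxcl2. The interferon, GAS and AP-1 patterns had no match in either window.

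Cxcr2 read 7.35, 7.64, 7.51, 7.37 and 7.58 in non-transgenic lung and 7.78, 7.80, 8.58 and 7.86 in unaltered tissue. It read 7.43, 7.57, 7.95 and 7.35 in dysplasia and 6.47, 6.77, 6.60 and 6.66 in adenocarcinoma. All tumour arrays lay below all others, and unaltered replicate 3 was the highest of the 17. Adenocarcinoma was lower than non-transgenic lung (log2 difference -0.87 ± 0.15, adjusted p = 0.000214), than unaltered tissue (2.60-fold, log2 difference -1.38 ± 0.15, adjusted p = 4.54e-06) and than dysplasia (log2 difference -0.95 ± 0.15, adjusted p = 0.000601). Unaltered tissue exceeded non-transgenic lung by 0.51 ± 0.15 (adjusted p = 0.0309), a call lost without unaltered replicate 3 or non-transgenic replicate 1, 3 or 4 (adjusted p from 0.0522 to 0.0762). Dysplasia minus unaltered tissue was -0.43 ± 0.13 (adjusted p = 0.0336), lost without dysplasia replicate 1, 2 or 4 or unaltered replicate 3 (adjusted p from 0.0676 to 0.112).

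Cxcr1, the other neutrophil receptor of this kind, was called once, in dysplasia over non-transgenic lung (6.96 ± 0.18 against 6.43 ± 0.25, a difference of 0.53 ± 0.17, adjusted p = 0.0418). The call was lost without any 1 of the 4 dysplasia arrays or non-transgenic replicates 2, 3 and 4 (adjusted p from 0.0536 to 0.104). Of 9 neutrophil markers measured, none was higher and 4 were lower in adenocarcinoma than in each of the 3 other groups. The log2 of their summed level was 9.48 to 9.66 in non-transgenic lung, 9.65 to 10.48 in unaltered tissue, 9.25 to 9.57 in dysplasia and 8.85 to 8.93 in adenocarcinoma. S100a9, a calcium-binding protein abundant in neutrophils, had means of 6.74, 7.48, 6.04 and 4.81 in that order. Their part in the result was not tested.

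Cxcl12, Cxcl13, Cxcr4, Cxcr5 and Ccr7 were each lower in adenocarcinoma than in non-transgenic lung. Cxcl12 is made by endothelium and stromal cells and, through Cxcr4, holds progenitors and lymphocytes in place. It read 9.44, 9.58, 9.53, 9.99 and 10.30 in non-transgenic lung and 9.55, 9.30, 9.16 and 9.47 in unaltered tissue. It read 9.13, 8.83, 8.53 and 9.01 in dysplasia and 8.64, 8.56, 8.78 and 8.74 in adenocarcinoma. Both lesion groups lay below all other arrays, and they overlapped each other. The log2 difference from non-transgenic lung was -0.89 ± 0.16 in dysplasia (adjusted p = 0.000859) and -1.09 ± 0.16 in adenocarcinoma (2.13-fold lower, adjusted p = 6.01e-05), and adenocarcinoma was below unaltered tissue (log2 difference -0.69 ± 0.17, adjusted p = 0.00571). The paired difference between dysplasia and unaltered tissue was -0.42, -0.47, -0.64 and -0.45 in the 4 pairs (-0.49 ± 0.15, adjusted p = 0.027). It was lost without dysplasia replicate 2 or 3 or unaltered replicate 1, 2 or 4 (adjusted p from 0.0549 to 0.101).

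Cxcr4 read 9.84, 9.77, 9.86, 10.43 and 10.31 in non-transgenic lung, 9.75, 9.46, 8.80 and 9.48 in unaltered tissue, 9.72, 9.35, 8.96 and 9.54 in dysplasia and 8.86, 8.79, 8.71 and 9.09 in adenocarcinoma. Every transgenic array lay below every non-transgenic one. Adenocarcinoma was lower than non-transgenic lung (2.27-fold, log2 difference -1.18 ± 0.19, adjusted p = 0.000111). Unaltered tissue (log2 difference -0.67 ± 0.19, adjusted p = 0.0267) and dysplasia (log2 difference -0.65 ± 0.19, adjusted p = 0.0224) were lower than non-transgenic lung too. Both of these calls were lost without non-transgenic replicate 4 or 5 (adjusted p from 0.0518 to 0.0596), the former also without unaltered replicate 2 or 3 (0.0528 and 0.0781) and the latter without dysplasia replicate 2 or 3 (0.0594 and 0.0821). Without both non-transgenic replicates 4 and 5 the differences were -0.45 and -0.43. After quantile normalization and cyclic loess the unaltered difference was -0.52 and -0.53 (adjusted p = 0.0979 and 0.0891).

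All 10 blood endothelium markers measured were lower in dysplasia and in adenocarcinoma than in non-transgenic lung. The log2 of their summed level was 14.73 to 14.89 in non-transgenic lung, 14.31 to 14.58 in unaltered tissue, 13.35 to 14.14 in dysplasia and 12.58 to 12.64 in adenocarcinoma. Of 9 fibroblast markers, 5 were lower and 2 higher in adenocarcinoma than in non-transgenic lung. The part of these cells in the levels of Cxcl12 was not tested.

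**Figure D4:**
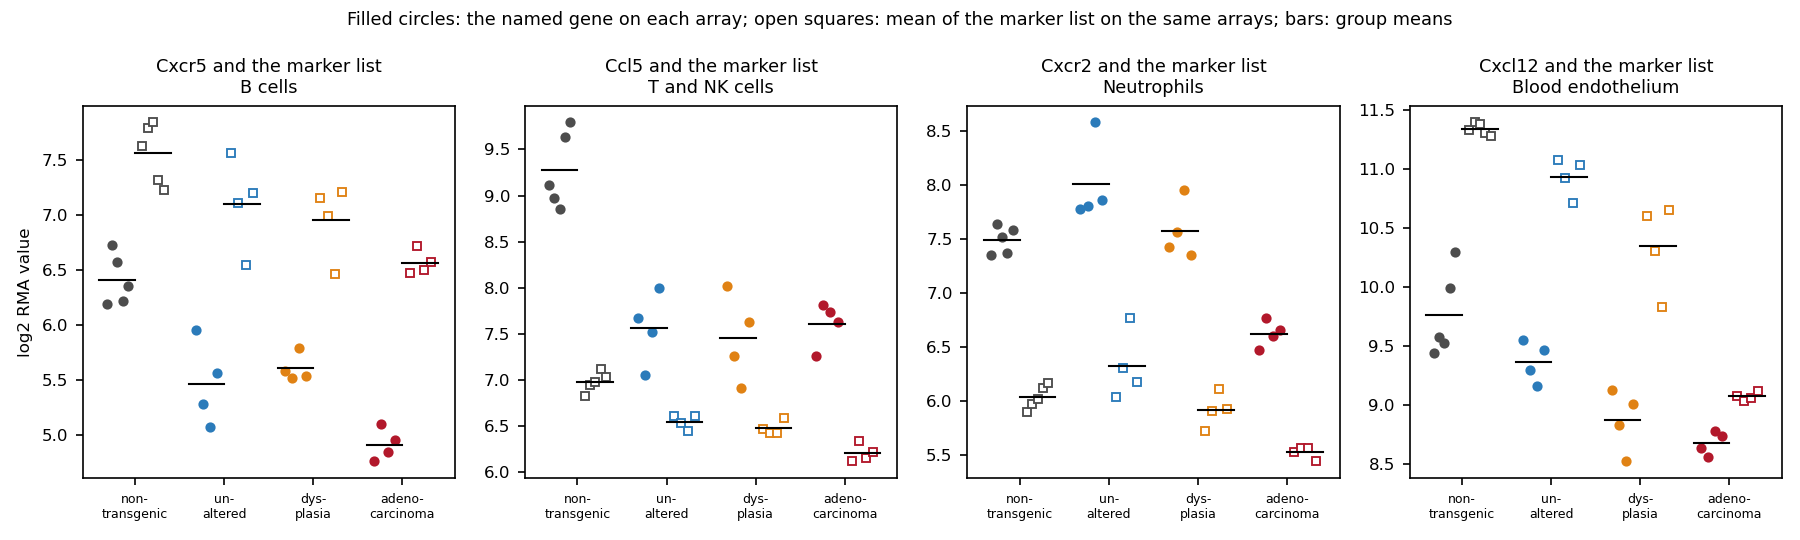
Filled circles give the log2 RMA value of Cxcr5, Ccl5, Cxcr2 and Cxcl12 on each array and open squares the mean log2 value of a marker list (B cells, T and NK cells, neutrophils, blood endothelium) on the same arrays, with bars at group means. The endothelial list and Cxcl12 both fall from non-transgenic lung to adenocarcinoma, and the neutrophil list and Cxcr2 are both highest in unaltered tissue and lowest in adenocarcinoma.

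Cxcr5 and Ccr7 bring B cells, T cells and dendritic cells into lymphoid structures. Cxcr5 read 6.19, 6.73, 6.57, 6.22 and 6.35 in non-transgenic lung, 5.95, 5.28, 5.07 and 5.56 in unaltered tissue, 5.58, 5.52, 5.79 and 5.54 in dysplasia and 4.76, 5.10, 4.84 and 4.95 in adenocarcinoma. The non-transgenic arrays lay above all transgenic ones, and 1 unaltered array, replicate 3 at 5.07, reached into the tumour range. The log2 differences from non-transgenic lung were -0.95 ± 0.16 in unaltered tissue (adjusted p = 0.00247), -0.81 ± 0.16 in dysplasia (adjusted p = 0.00218) and -1.50 ± 0.16 in adenocarcinoma (2.83-fold lower, adjusted p = 2.28e-06). Adenocarcinoma was also lower than dysplasia (log2 difference -0.69 ± 0.17, adjusted p = 0.0144) and than unaltered tissue (log2 difference -0.55 ± 0.17, adjusted p = 0.0246). The latter call was lost without unaltered replicate 1 or 4 or adenocarcinoma replicate 1 or 3 (adjusted p from 0.0605 to 0.0717).

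Ccr7 read 7.36, 7.19, 7.23, 7.29 and 7.48 in non-transgenic lung, 6.98, 6.44, 6.15 and 6.57 in unaltered tissue, 6.95, 6.55, 6.80 and 6.94 in dysplasia and 5.87, 6.29, 5.99 and 6.19 in adenocarcinoma. As for Cxcr5, no transgenic array reached the lowest non-transgenic one. The log2 differences from non-transgenic lung were -0.77 ± 0.14 in unaltered tissue (adjusted p = 0.00321), -0.50 ± 0.14 in dysplasia (adjusted p = 0.0197) and -1.22 ± 0.14 in adenocarcinoma (2.34-fold lower, adjusted p = 3.8e-06). The dysplasia call was lost without dysplasia replicate 2 (adjusted p = 0.0759). Adenocarcinoma was lower than dysplasia (log2 difference -0.72 ± 0.15, adjusted p = 0.00367) and than unaltered tissue (log2 difference -0.45 ± 0.15, adjusted p = 0.0317). The latter was lost without unaltered replicate 1, 2 or 4 or adenocarcinoma replicate 1 or 3 (adjusted p from 0.0531 to 0.1).

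Cxcl13, the ligand of Cxcr5 that draws B cells into follicles, had means of 7.40 ± 0.38, 7.15 ± 0.34, 7.40 ± 0.08 and 6.42 ± 0.60 in non-transgenic, unaltered, dysplastic and tumour tissue. Adenocarcinoma was lower than non-transgenic lung (log2 difference -0.98 ± 0.25, adjusted p = 0.00686) and lower than dysplasia (log2 difference -0.98 ± 0.26, adjusted p = 0.0242). The dysplasia comparison was lost without dysplasia replicate 1 or 4 or adenocarcinoma replicate 2, 3 or 4 (adjusted p from 0.0575 to 0.0839). Of 8 B-cell markers measured, 6 were lower and none higher in adenocarcinoma than in non-transgenic lung, where 16.4% of all rows were called lower. Against non-transgenic lung 2 were lower in unaltered tissue (11.8% of all rows) and 3 in dysplasia (9.86%), and none was higher. The log2 of their summed level was 10.57 to 11.10 in non-transgenic lung, 9.86 to 10.76 in unaltered tissue, 9.95 to 10.46 in dysplasia and 10.00 to 10.33 in adenocarcinoma. Ms4a1, which encodes CD20, had means of 7.38, 6.45, 6.12 and 5.09. Their part in the result was not tested.

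Cxcl14, an epithelial and stromal chemokine, had means of 8.70 ± 0.33, 8.81 ± 0.14, 8.34 ± 0.10 and 8.12 ± 0.17. It was lower in adenocarcinoma than in non-transgenic lung (log2 difference -0.58 ± 0.15, adjusted p = 0.0059, and -0.23 with an adjusted p of 0.237 without non-transgenic replicates 1 to 3) and unaltered tissue (log2 difference -0.69 ± 0.15, adjusted p = 0.00275). In dysplasia it was lower than in the paired unaltered tissue (log2 difference -0.47 ± 0.13, adjusted p = 0.0216), a call lost without dysplasia replicate 1, 2 or 3 or unaltered replicate 3 (adjusted p from 0.0504 to 0.0747).

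The receptor genes Ccr6 and Ccr9 were called once each. Ccr6, the receptor of Ccl20 on B cells and interleukin-17-producing T cells, was lower in adenocarcinoma than in non-transgenic lung (4.70 ± 0.39 against 5.25 ± 0.22, log2 difference -0.56 ± 0.18, adjusted p = 0.0251). Ccr9, which guides T cells to the gut, was lower in unaltered than in non-transgenic tissue (5.58 ± 0.17 against 5.98 ± 0.17, log2 difference -0.40 ± 0.12, adjusted p = 0.0383). The Ccr6 call was lost without non-transgenic replicate 3 or 4 or adenocarcinoma replicate 1, 3 or 4 (adjusted p from 0.0548 to 0.0869), and the Ccr9 call without non-transgenic replicate 2, 3 or 5 or unaltered replicate 1, 2 or 4 (adjusted p from 0.0712 to 0.0991) or after quantile normalization or cyclic loess (0.102 and 0.0838).

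Leaving out non-transgenic replicates 1 to 3, which keeps 2 control arrays, moved several differences from non-transgenic lung by over 1.5-fold besides that of Cxcl14. In dysplasia Ccl17 was then higher by 0.63 (adjusted p = 0.350), Ccl12 by 0.29 (adjusted p = 0.276) and Cxcl16 by 0.06 (adjusted p = 0.656). In adenocarcinoma Ccl3 was higher by 0.12 (adjusted p = 0.639), Ccl12 by 0.23 (adjusted p = 0.373) and Cxcl1 by 0.48 (adjusted p = 0.333). The calls of Ccr1 in all 3 transgenic groups, Ccr6 in adenocarcinoma, Ccr7, Cxcl9 and Cxcr1 in dysplasia and Ccr9 and Cxcr2 in unaltered tissue were lost as well (adjusted p from 0.0639 to 0.213). Without replicates 4 and 5 instead, the calls of Ccr7 and Cxcr1 in dysplasia and Ccr9 and Cxcr2 in unaltered tissue were lost (adjusted p from 0.0505 to 0.0741), beside those of Cxcr3 and Cxcr4.

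The 18 genes called in no comparison had group means within 0.93 of each other at most, the widest being Ccr4. Of these, 8 lay under the lower quartile of all rows in every group (Ccl1, Ccl8, Ccl24, Ccl26, Ccr3, Ccr4, Cxcl5 and Cxcl11), so for them a difference may lie below what the array resolves. The other 10 were Ccl2, Ccl4, Ccl7, Ccl9, Ccl20, Ccl25, Ccl28, Ccr10, Ccr1l1 and Cxcl2. Ccl20, the epithelial ligand of Ccr6, had means of 6.40 ± 0.63, 6.04 ± 0.39, 6.56 ± 0.38 and 6.12 ± 0.25, and dysplasia was higher than unaltered tissue in all 4 pairs without passing (0.52 ± 0.25, adjusted p = 0.171). Ccl9, a macrophage chemokine of mouse, ranged over groups from 8.03 to 8.44 and Ccl28, a mucosal chemokine, from 6.40 to 6.69.

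A list of other genes of the chemokine system, among them atypical receptors, proteases and signalling proteins, was read from the same fit. Of 35 measured, 8 were higher and 16 lower in adenocarcinoma than in non-transgenic lung, with a median difference of -0.12 against 0.01 over all rows. Of all rows, 13.6% were called higher and 16.4% lower there. Ppbp, a platelet chemokine encoded beside Cxcl5, had means of 9.59, 9.51, 8.69 and 6.52 and a log2 difference of -3.07 ± 0.23 (adjusted p = 3.56e-08). Of 3 platelet and megakaryocyte markers measured, Itga2b and Gp9 were lower too and Pf4 was not called, with a median difference of -0.92, and their part in the result was not tested. The atypical receptor Ackr2, which takes up inflammatory CC chemokines without signalling, was lower (log2 difference -2.40 ± 0.16, adjusted p = 9.14e-09). Ccrl2, which binds chemerin, was lower (log2 difference -2.36 ± 0.14, adjusted p = 2.77e-09). Rgs16, a brake on G protein signalling, was higher by 1.60 ± 0.13 (adjusted p = 7.33e-08), and Dpp4, a protease that trims the ends of several chemokines, by 0.44 ± 0.06 (adjusted p = 2.04e-05). The other comparisons follow, with the shares of all rows called higher and lower in brackets. In dysplasia against unaltered tissue 7 of the list were higher and 6 lower (15.1% and 5.32%). In unaltered against non-transgenic tissue 1 was higher and 10 lower (2.47% and 11.8%). In dysplasia against non-transgenic lung 7 were higher and 11 lower (7.62% and 9.86%). Adenocarcinoma gave 9 higher and 13 lower against unaltered tissue (16.8% and 10.1%). Against dysplasia it gave 4 higher and 8 lower (4.48% and 7.48%).

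A second list held cytokines, cytokine receptors and NF-kB genes that act upstream of chemokines. Of 30 measured, 10 were higher and 10 lower in adenocarcinoma than in non-transgenic lung, with medians of 0.03 for the list and 0.01 for all rows. The shares of all rows there were 13.6% higher and 16.4% lower. Il33, an epithelial alarmin, was higher by 1.26 ± 0.17 (adjusted p = 2.52e-05), and Csf2, which encodes GM-CSF, by 1.17 ± 0.15 (adjusted p = 1.08e-05). Csf1, the macrophage growth factor, was lower (log2 difference -1.71 ± 0.11, adjusted p = 5.46e-09), as was Nfkbia, the inhibitor of NF-kB, (log2 difference -1.13 ± 0.13, adjusted p = 2.67e-06). Ifng, the interferon that induces Cxcl9, had means of 5.17 ± 0.23, 5.16 ± 0.20, 4.86 ± 0.20 and 5.24 ± 0.42 and was not called in adenocarcinoma (0.07 ± 0.17, adjusted p = 0.815). Its means lay close to the lower quartile of all rows (5.00 to 5.06), and under it in dysplasia, so a difference may be poorly resolved. Irf1, a transcription factor of the interferon response, was lower there (log2 difference -0.72 ± 0.10, adjusted p = 3.28e-05). For the other comparisons the shares of all rows called higher and lower are again in brackets. In dysplasia against unaltered tissue 6 of the list were higher and 3 lower (15.1% and 5.32%). In unaltered against non-transgenic tissue these were 2 and 5 (2.47% and 11.8%). In dysplasia against non-transgenic lung 8 were higher and 7 lower (7.62% and 9.86%). Adenocarcinoma gave 5 and 9 against unaltered tissue (16.8% and 10.1%) and 1 and 5 against dysplasia (4.48% and 7.48%).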

How the data were processed

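Gene expression was measured on 17 Affymetrix mouse exon arrays of laser-microdissected lung. The authors deposited log2 RMA values of a core-exon analysis, per the labels computed in Expression Console; the genome build is not given in the sources used here. The values ran from 1.13 to 14.3, and array medians from 6.67 to 6.85. Ribosomal RNA was reduced and the RNA amplified before labelling, per the labels' protocols, which can change the measured levels. The number of arrays limits the precision.

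A linear model in limma (version 3.58.1, under R 4.3.3) was fitted to all 23238 rows without a filter, with a mean for each of the 4 groups and the animal label as a random block (duplicateCorrelation, correlation 0.245), then eBayes and Benjamini-Hochberg adjustment over all rows, with a threshold of 0.05. Gene symbols came from the platform annotation: 14939 rows name 1 gene, 989 several and 7310 none. Sex was left out because Y-linked genes went against the label on 4 arrays. Arrays of 1 group carry different animal labels, and pairing of dysplasia with unaltered tissue comes from the same labels. Deviations from the group means correlated at 0.21, 0.08, 0.15 and -0.01 within the 4 pairs and at -0.23 to 0.15 for other combinations.

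The genes, lists, tests and alternatives were chosen with earlier results of these data known. Genes called with a log2 difference of at least 1 are given on every array, other called genes by group means and the rest by range; Cxcl15, Cxcl12, Cxcr4, Ccr2, Ccr7, Cxcl5 and Ccl20 are given by group means in any case. Cxcr6 and Cxcl10 were given by array or range, and other genes of the lists were picked, after their values were seen. Alternatives covered the block, sex, age, the groups fitted, a filter on low values, normalization between arrays, eBayes options and left-out arrays. The steps were tested on simulated data.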

Additional observations from a re-analysis of the deposited data

Results flagged for a closer look

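In 16 of 176 sets of a gene and a group, 1 array lay farther from the others than Dixon's 95% critical value for its gap allows. Chance gives about 1 in 20. Non-transgenic replicate 4 was such an array for 5 genes, in each case as the highest of its group: Ccl20 read 7.52 there and 5.98 to 6.25 on the other 4 arrays, Ccl22 read 6.82 against 5.76 to 6.03, and Ccr1 read 5.99 against 5.45 to 5.60. On the same array Ccr2 read 8.67 against 7.96 to 8.11 and Cxcl9 read 5.61 against 4.95 to 5.07.

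Unaltered replicate 3 was the highest of its group for Ccr1 (7.21, the others 6.16 to 6.20), Ccl9 (8.64, the others 7.92 to 8.02) and Cxcr2 (8.58, the others 7.78 to 7.86). Unaltered replicate 4 was apart in opposite directions, high for Cxcl5 (4.97, the others 4.28 to 4.31) and low for Ccl12 (4.47, the others 4.80 to 4.84). In dysplasia, replicate 3 was low for Ccr6 (4.53, the others 5.15 to 5.17) and high for Cxcl15 (13.54, the others at 13.48). Dysplasia replicate 4 was low for Ccl11 (6.41, the others 6.58 to 6.60) and replicate 1 low for Ccl2 (5.35, the others 5.55 to 5.58). Adenocarcinoma replicate 3 was high for Ccl11 (6.26, the others 6.01 to 6.05), and non-transgenic replicate 1 low for Ccl1 (3.37, the others 3.61 to 3.68). Leaving out such an array ended 5 calls in the limma fit. They were Cxcr2 without unaltered replicate 3, in unaltered against non-transgenic tissue (adjusted p = 0.0762) and in dysplasia against unaltered tissue (adjusted p = 0.112), and, each without its own array, Ccl12 and Cxcl15 in dysplasia against unaltered tissue (adjusted p = 0.0983 and 0.101) and Ccl11 in adenocarcinoma against dysplasia (adjusted p = 0.0597, without dysplasia replicate 4).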

How the results depend on the processing

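Of the 77 calls among the family in the 6 comparisons, 22 held under each of the 18 to 21 alternatives run for their comparison, 55 were lost under at least 1, and none turned its direction. For dysplasia against unaltered tissue, the count of 12 became 5 with no replicate block and 3 without the arrays naming 2 animals; with a fixed replicate block it was 8. For unaltered against non-transgenic tissue, 9 became 5 with labelled sex as a covariate, 1 with age and 4 when only both groups were fitted. For dysplasia against non-transgenic lung, 13 became 7 with labelled sex, 6 with age, 6 without the arrays naming 2 animals and 8 without non-transgenic replicates 1 to 3. With age as a covariate, adenocarcinoma gave 11 in place of 19 against non-transgenic lung, 2 in place of 15 against unaltered tissue and 0 in place of 9 against dysplasia, where limma gave 4 at an unadjusted p under 0.05. Without the arrays naming 2 animals the last comparison gave 4. Leaving out each array in turn gave 4 to 10 for dysplasia against unaltered tissue, where dysplasia replicate 2 gave 4 and dysplasia replicate 1 and unaltered replicates 1 and 2 gave 7 each. It gave 7 to 10 for unaltered against non-transgenic tissue and 7 to 13 for dysplasia against non-transgenic lung, where dysplasia replicates 2 and 3 gave 7 and 8. For adenocarcinoma it gave 15 to 21, 12 to 16 and 6 to 9 against non-transgenic, unaltered and dysplastic tissue. The F-test count of 22 ran from 20 to 23 when 1 array was left out, and was 17 without the arrays naming 2 animals. Outside the paired comparison the replicate block changed only Cxcl16 in dysplasia against non-transgenic lung, which had an adjusted p of 0.0505 without it, and 1 call of the F-test (23 without the replicate block, 22 of them shared). The mean of all rows of a gene was not run, since each gene had 1 row. Apart from fewer arrays, the cause of these changes was not tested. Quantile normalization turned the split over all rows in dysplasia against unaltered tissue from 3504 higher and 1236 lower to 2218 and 2354, turned that in unaltered against non-transgenic tissue too, and moved the median of all rows by at most 0.10.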

Other observations

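In 2 rows a chemokine gene shares its probes with another, so these rows stand outside the 44 genes. The row of Ccl6 and Ccl9, which are neighbouring macrophage chemokine genes in mouse, had means of 10.46 ± 0.50 in non-transgenic lung (n = 5), 11.31 ± 0.21 in unaltered tissue, 11.28 ± 0.13 in dysplasia and 11.68 ± 0.12 in adenocarcinoma (n = 4 each). In the limma fit it was higher than non-transgenic lung by 0.85 ± 0.20 (adjusted p = 0.0109), 0.82 ± 0.20 (adjusted p = 0.00714) and 1.22 ± 0.20 (adjusted p = 0.000137). The row with Ccl9 alone was called in none of the 6 comparisons. The row of Cxcl3 and Cxcl15 had means of 3.64 ± 0.17, 3.68 ± 0.10, 3.91 ± 0.30 and 4.20 ± 0.40 and was higher in adenocarcinoma than in non-transgenic lung by 0.56 ± 0.17 (adjusted p = 0.0196). Its means lay under the lower quartile of all rows (5.00 to 5.06) in every group, so this difference may be poorly resolved. The row with Cxcl15 alone had group means from 13.14 to 13.66.

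Ligands and their receptors can be set side by side. In adenocarcinoma against non-transgenic lung, Cxcl9 and Cxcl10 were higher while Cxcr3 was not called (-0.68, adjusted p = 0.0914), Cxcl1 was higher while Cxcr2 was lower, and Ccl12 was higher while Ccr2 was lower. Cxcl12 with Cxcr4 and Cxcl13 with Cxcr5 were lower together. These pairs were picked after the values were seen, and the difference between members of a pair was not tested.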
